A study of Homo sapiens with 4 samples.

Results

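The replication-dependent histone genes encode the histones that package newly made DNA, and they were followed here by histone class and by genomic cluster. They were taken as every gene name in the 4 tables that begins with HIST1 to HIST4 and continues with H1, H2A, H2B, H3 or H4. Rows with the same name were summed. This gave 73 of 29655 gene names, comprising 6 H1, 18 H2A, 20 H2B, 14 H3 and 15 H4 genes. By cluster, 56 were HIST1 genes, 13 HIST2, 3 HIST3 and 1 HIST4. The RNA came from UMSCC74B, an established line of head and neck squamous carcinoma (HNSCC) with a wild-type genotype label. It was sequenced in 2 libraries of the control shRNA group and 2 of the group with shRNA against PRMT5, an arginine methyltransferase, all after 72 h without antibiotic. The labels describe transfection with shRNA plasmids, whereas the study's methods describe lentiviral particles, and neither names separate cultures for the replicates, so p-values measure only the spread between these libraries, which may be technical. The comparison asks how silencing PRMT5 changes transcript levels in this line.

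Nucleosomes hold an octamer of the core histones H2A, H2B, H3 and H4, and the linker histone H1 binds the DNA between them. Replication-dependent histone genes are transcribed mainly in S phase, when DNA is copied, and nearly all of their mRNAs end in a conserved stem-loop in place of a poly(A) tail. The stem-loop is bound by SLBP, and the U7 small nuclear ribonucleoprotein guides the cleavage just after it. PRMT5 is known to methylate histones H2A, H3 and H4 and Sm proteins of the splicing machinery.

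The stem-loop was found in the 3′ UTR of the single-exon mRNA of 70 of 70 protein-coding members in GENCODE release 44 on GRCh38, beginning 22 to 67 bases after the stop codon (median 35). The search asked for GG at the start, T as the first loop base and a stem of 6 base pairs. At most 1 of these could be other than A with T or G with C. In 68 members all were of those kinds, while HIST1H2AG and HIST1H2AK each had 1 T opposite G. The loop requirement was relaxed from TTT to T after 3 members had failed the stricter form. The sites below are shown because they separate the classes and carry the variants found in the members that departed most from the rest. Capitals mark the 16-base stem-loop and the lower-case letters 5 bases on each side, 5′ to 3′ on the mRNA strand, written as DNA.
HIST1H1E: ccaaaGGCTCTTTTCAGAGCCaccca
HIST2H2AA3: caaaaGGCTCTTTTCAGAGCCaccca
HIST1H2AG: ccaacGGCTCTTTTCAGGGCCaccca
HIST1H2BK: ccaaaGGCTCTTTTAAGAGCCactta
HIST1H2BI: ccaaaGGCTCTTCTAAGAGCCaccca
HIST1H3E: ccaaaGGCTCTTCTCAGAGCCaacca
HIST2H4B: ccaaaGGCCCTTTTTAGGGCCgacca
HIST1H4L: tcaaaGGCCCTTCTCAGGGCCaccca
HIST4H4: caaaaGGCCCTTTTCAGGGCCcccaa
These sites lie at chr6:26157090-26157115 for HIST1H1E, chr1:149842218-149842243 for HIST2H2AA3, chr6:27133510-27133535 for HIST1H2AG, chr6:27146361-27146386 for HIST1H2BK, chr6:26273387-26273412 for HIST1H2BI, chr6:26225591-26225616 for HIST1H3E, chr1:149860764-149860789 for HIST2H4B, chr6:27873148-27873173 for HIST1H4L and chr12:14770719-14770744 for HIST4H4. The genes HIST1H1E, HIST1H2AG, HIST1H2BI and HIST1H3E are on the plus strand and HIST2H2AA3, HIST1H2BK, HIST2H4B, HIST1H4L and HIST4H4 on the minus strand. Positions below are counted from 1 at the 5′ end of the stem-loop, and the commonest form is the one shown for HIST1H1E, which 40 members share. All 15 H4 genes carried T4C together with A13G, which exchanges 1 base pair of the stem, and no gene of another class carried both. C10A in the loop was found in 11 members, 6 of them H2B genes. T8C was found in HIST1H3E, HIST1H2BI and HIST1H4L. HIST1H2AG carried A13G alone.

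The encoded proteins were far less diverse than the genes. Of 15 H4 genes, 14 encode the same protein, and of 14 H3 genes, 10 do. The 17 coding H2A genes encode 11 distinct proteins and the 18 coding H2B genes 14, while each of the 6 H1 genes encodes its own, with a median identity of 76.3% between H1 proteins. The mRNAs are also alike, and the share of 31-base windows of a member's transcripts that occur in no other annotated gene was 89.4% at the median over members and under 10% for 9 members. It was 0.198% or less for HIST2H2AA3, HIST2H2AA4, HIST2H3A, HIST2H4A and HIST2H4B and 0.813% for HIST2H3C. The estimated counts of those genes depend on how the counting program divided shared reads, so each such set was also summed. Such a sum removes the division within the set but not that with other genes.

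Over the 4 libraries, 41985557 to 53705327 counts fell on protein-coding genes, and rRNA took 14.2% and 15.3% of all counts in control and 26.2% and 18.02% in the libraries labelled PRMT5 KD. The paper reports an immunoblot, a measure of protein, for the silencing by the PRMT5 shRNA. In these RNA libraries the transcript targeted by the shRNA was higher, not lower, with the PRMT5 KD label. PRMT5 had 94.2 and 84.2 CPM (TMM-scaled counts per library of equal size) in control against 132 and 149 CPM (log2 fold change 0.66, standard error 0.12, FDR = 0.00549), so every direction below is given by the label of the library. Markers of squamous epithelium were nearly absent in control. KRT5 had 0 counts in both control libraries, KRT14 had 0, CDH1 had 9 and 4, SFN 3 and 5 and KRT17 5 and 6. With the PRMT5 KD label, KRT14 had 11 and 21.8 counts, SFN 28 and 86 and KRT17 53 and 71, and these genes were not tested because they were under the expression filter. Of the 6 squamous markers, TP63 alone passed the expression filter and was called lower (log2 fold change -1.35). The 6 summed to 5.93 and 6.89 CPM in control and 3.72 and 6.91 CPM with the PRMT5 KD label. Of 6 markers of other cells, the fibroblast genes LUM and DCN and the endothelial gene PECAM1 were expressed and lower with the PRMT5 KD label. Their list summed to 194 and 200 CPM in control and 37.1 and 30.8 CPM with that label, with CD3E at 0 counts in all 4 libraries. The part of these markers in the histone results was not tested.

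Summed histone transcripts were more abundant with the PRMT5 KD label in every class. The 73 genes took 25237 and 29323 counts in control, which is 0.0601% and 0.0546% of the protein-coding counts. They took 135930 and 144271 counts, or 0.296% and 0.328%, with the PRMT5 KD label. Summed and scaled by TMM, they went from 612 ± 36.3 CPM to 2935 ± 114 CPM (each an SD over n = 2), a ratio of 4.80. A sum over members is a description and was not tested. In bulk RNA, more cells in S phase and more histone RNA per cell cannot be told apart. Nearly all of these mRNAs end without a poly(A) tail, and whether poly(A) RNA was selected is not given. The share of rRNA also differed between the groups, as given above, and the part of RNA capture in these sums was not tested.

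Of the 73 genes, 64 entered the test across genes. That test took protein-coding names with at least 0.5 RPKM (counts scaled to library size and union exon length) in both libraries of a group. It called 62 of the 64 higher and 1 lower (edgeR quasi-likelihood test, FDR below 0.05 and a change of 0.5 or more in log2 units). Over all 11909 genes tested, 45.5% were called and 21.2% were called higher. The median log2 fold change was 2.15 over the tested members and -0.0075 over all genes tested. Of the 64, 5 passed the filter only through the libraries labelled PRMT5 KD (HIST1H1A, HIST1H2BE, HIST1H4L, HIST2H3A and HIST3H2BB) and HIST1H3E only through control. Among the 59 that passed in the control libraries, 57 were called higher, with a median of 2.04. Their class medians were 1.46 for H1, 2.17 for H2A, 2.17 for H2B, 2.27 for H3 and 1.65 for H4. With no filter on low counts, 68 members could be tested and again 62 were called higher and 1 lower. In 63 of the 64, both libraries labelled PRMT5 KD lay above both control libraries, which held for 39.9% of all genes tested. A log2 fold change above 1.41, the 95th percentile of all genes tested, was reached by 56 of the 64. Both of these counts include the 5 genes that passed the filter only through the libraries labelled PRMT5 KD, where they are high. An offset fitted to exon length and GC, in which the histone genes took part, lowered the median to 1.36 and the number called higher to 51. Fitted without the histone genes, the same correction gave 1.92 and 60. With the first offset the class medians were 0.90 for H1, 1.25 for H2A, 1.67 for H2B, 1.41 for H3 and 0.62 for H4, in place of the values given by class below. With the second they were 1.31, 1.95, 2.13, 2.14 and 1.41 in the same order.

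**Figure D1:**
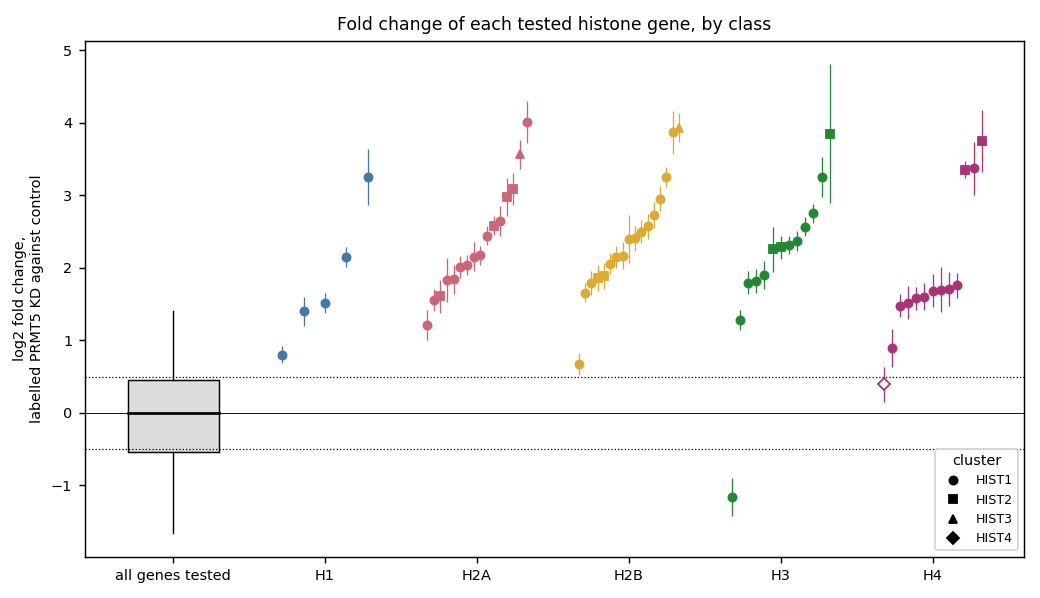
Log2 fold change (vertical axis, libraries labelled PRMT5 KD against control, bars are standard errors) of the 64 tested histone genes by class, with marker shape for the cluster and an open marker for the gene not called, beside the distribution over 11909 genes tested (box, quartiles; line, median; whiskers, 5th and 95th percentiles). HIST1H3E, at -1.16, is the one histone gene below 0, and the class medians lie between 1.52 and 2.39. These medians include the 5 genes that passed the filter only through the libraries labelled PRMT5 KD.

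H1 genes encode the linker histones. All 5 tested H1 genes were called higher and had a median of 1.52 on the log2 scale. HIST1H1E was the most abundant per length over the 4 libraries. It had 27.7 and 27.4 CPM in control and 110 and 136 CPM with the PRMT5 KD label, which is 2.16 on the log2 scale (standard error 0.14, FDR = 0.000256). HIST1H1C was the most abundant H1 gene in control and rose least, from 48.6 and 45.6 CPM to 87.3 and 77.2 CPM (0.81, standard error 0.12, FDR = 0.00218). The order of these genes was thus exchanged between the groups, with HIST1H1C holding 51.7% and 48.8% of the summed H1 level per length in control and 35.9% and 28.9% with the PRMT5 KD label. HIST1H1B rose from 11.1 ± 1.01 CPM to 31.7 ± 0.013 CPM (1.52, FDR = 0.000496). HIST1H1A had 10 and 14 counts in control and 98 and 148 with the PRMT5 KD label, the largest H1 change (3.26, standard error 0.39). The testis-specific linker histone gene HIST1H1T had 16, 13, 9 and 19 counts, its groups overlapped, and it was not tested.

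H2A genes held the most abundant member of the family, HIST2H2AA3. All 16 tested H2A genes were called higher (median 2.17), from 1.21 for HIST1H2AI to 4.02 for HIST1H2AL. HIST2H2AA3 alone held 50.9% and 41.9% of the summed H2A level per length in control and 56.5% and 62.3% with the PRMT5 KD label. It had 3502.6 and 3321.6 estimated counts in control and 27001 and 36008 with the PRMT5 KD label, which is 88.4 and 66.4 CPM against 567 and 753 CPM. This is 3.09 on the log2 scale (standard error 0.22, FDR = 0.000324), and the groups did not overlap. HIST2H2AA4, its near-identical copy on the opposite strand, had 6.27 and 10.6 CPM against 65.2 and 68.5 CPM (2.98, standard error 0.26). Summed over the pair, so that the split of reads between these copies has no part, the level rose from 85.8 ± 12.5 CPM to 727 ± 134 CPM, a ratio of 8.46. Of the windows of each copy, 96.2% occur in no gene outside the family. The other 16 H2A genes summed to 75.1 ± 1.40 CPM in control and 354 ± 11.1 CPM with the PRMT5 KD label, a ratio of 4.72. HIST1H2AG rose from 11.8 ± 1.13 CPM to 53.4 ± 0.701 CPM (2.18, FDR = 0.000236). HIST1H2AL was scarce in control, with 16 and 34 counts, and had 422 and 432 with the PRMT5 KD label (standard error 0.29, FDR = 0.000324). HIST1H2AI had the smallest fitted change, from 3.32 ± 0.443 CPM to 7.71 ± 0.575 CPM. Of its windows 35.1% occur in no other gene, and 31.2% of those of HIST1H2AJ (2.65), so both values depend on the division of shared reads. Summed, these genes went from 7.46 ± 0.237 CPM to 33.7 ± 5.27 CPM, or 2.18 on the log2 scale. The testis gene HIST1H2AA had 2 counts in 1 library and none in the other 3.

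H2B genes were all called higher where tested, 17 of 17, with a median of 2.39. Of these, HIST1H2BE and HIST3H2BB passed the filter only through the libraries labelled PRMT5 KD, and the other 15 had a median of 2.17. HIST1H2BK was the most abundant in every library, at 68.4 and 60.2 CPM in control and 216 and 189 CPM with the PRMT5 KD label. Its log2 fold change of 1.66 (standard error 0.13, FDR = 0.000368) was below the class median, and its share of the summed H2B level per length went from 41.3% and 41.2% to 30.8% and 27.2%. Of its windows 29.0% occur in no other gene, and 31.6% in no gene outside the family. Its level, share and change thus depend on the division of shared reads. HIST1H2BO rose from 12.3 ± 1.95 CPM to 94.9 ± 12.6 CPM (2.95) and HIST1H2BJ from 9.53 ± 1.26 CPM to 91.1 ± 0.0635 CPM (3.26). HIST3H2BB had 40 and 66 counts in control and 820.2 and 896.8 with the PRMT5 KD label, the largest H2B change (3.94, standard error 0.20, FDR = 0.000197). HIST1H2BD had the smallest, from 9.80 ± 0.381 CPM to 15.6 ± 1.55 CPM (0.67, standard error 0.15, FDR = 0.0101). That call was lost without either control library, with an FDR of 0.0611 and 0.0904, and after the length and GC correction the value was -0.02. HIST1H2BA, which encodes the testis form of H2B, had no count in either control library and 10 and 12 with the PRMT5 KD label. With a floor of 3 counts per control library this was at least 3.40-fold higher, which covers counting error only.

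H3 genes held the one member called lower. Of 13 tested, 12 were called higher, with a class median of 2.28. HIST2H3C was the most abundant, at 26.6 and 20.7 CPM in control and 123 and 106 CPM with the PRMT5 KD label (2.28, standard error 0.16, FDR = 0.000317). It shares nearly its whole sequence with HIST2H3A, which had 18 and 0 counts against 159.6 and 130.5. The fitted 3.85 for HIST2H3A had a standard error of 0.96, and its call was lost with DESeq2 (adjusted p = 0.180) and without either library labelled PRMT5 KD (FDR = 0.118 and 0.0901). It was 2.74 without control replicate 2, and without control replicate 1 the remaining control count was 0, so the fitted value there is no measure of size. Summed, the pair rose from 23.9 ± 4.48 CPM to 118 ± 12.5 CPM, a ratio of 4.94. Of the windows of HIST2H3A and HIST2H3C, 64.1% and 64.4% occur in no gene outside the family. Their sum thus still depends on the division of shared reads. HIST1H3B rose from 19.9 ± 5.04 CPM to 74.3 ± 7.27 CPM (1.90) and HIST1H3C from 13.4 ± 1.20 CPM to 66.9 ± 1.14 CPM (2.32). HIST1H3E ran the other way. It had 100 and 139 counts in control and 55 and 58 with the PRMT5 KD label, or 2.53 and 2.78 CPM against 1.15 and 1.21 CPM. On the log2 scale this is -1.16 (standard error 0.26, FDR = 0.0107), and the groups did not overlap. The call was lost without control replicate 1 (FDR = 0.0660) and without control replicate 2 (FDR = 0.0991), with the direction kept. HIST1H3E encodes the same protein as 9 other H3 genes, has a longer annotated transcript that runs 1862 bases past its stem-loop, and carries T8C in the loop, as do HIST1H2BI and HIST1H4L, which rose (2.17 and 3.38). The testis gene HIST3H3 had 0 counts in every library.

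H4 genes encode almost a single protein. Of 13 tested, 12 were called higher, with a class median of 1.69. HIST2H4B was the most abundant, at 14.3 and 15.1 CPM in control and 144 and 157 CPM with the PRMT5 KD label (3.36, standard error 0.12, FDR = 0.00013). HIST2H4A, its near-identical copy, had 3.02 and 1.18 CPM against 27.2 and 28.4 CPM (3.75, standard error 0.43), and 4.56 without control replicate 1. The pair summed to 16.8 ± 0.744 CPM in control and 178 ± 10.4 CPM with the PRMT5 KD label, a ratio of 10.6. HIST1H4K rose from 11.7 ± 0.438 CPM to 38.2 ± 12.5 CPM (1.71) and HIST1H4H from 11.9 ± 0.795 CPM to 33.2 ± 5.37 CPM (1.48). Of the 10 tested HIST1 H4 genes, HIST1H4L (3.38) was the one above 2. HIST1H4E had the smallest change of those called (0.90, FDR = 0.0264). HIST4H4, the single member on chromosome 12, had 118 and 210 counts in control and 231 and 221 with the PRMT5 KD label. Its log2 fold change of 0.40 (standard error 0.24, FDR = 0.211) was not called, although the groups did not overlap on the CPM scale (2.98 and 4.196 against 4.85 and 4.62). After the length and GC correction 7 of the 13 were called, and 11 with the correction fitted without the histone genes. HIST1H4F had 0 counts in every library and HIST1H4G 3 counts in 1.

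**Figure D2:**
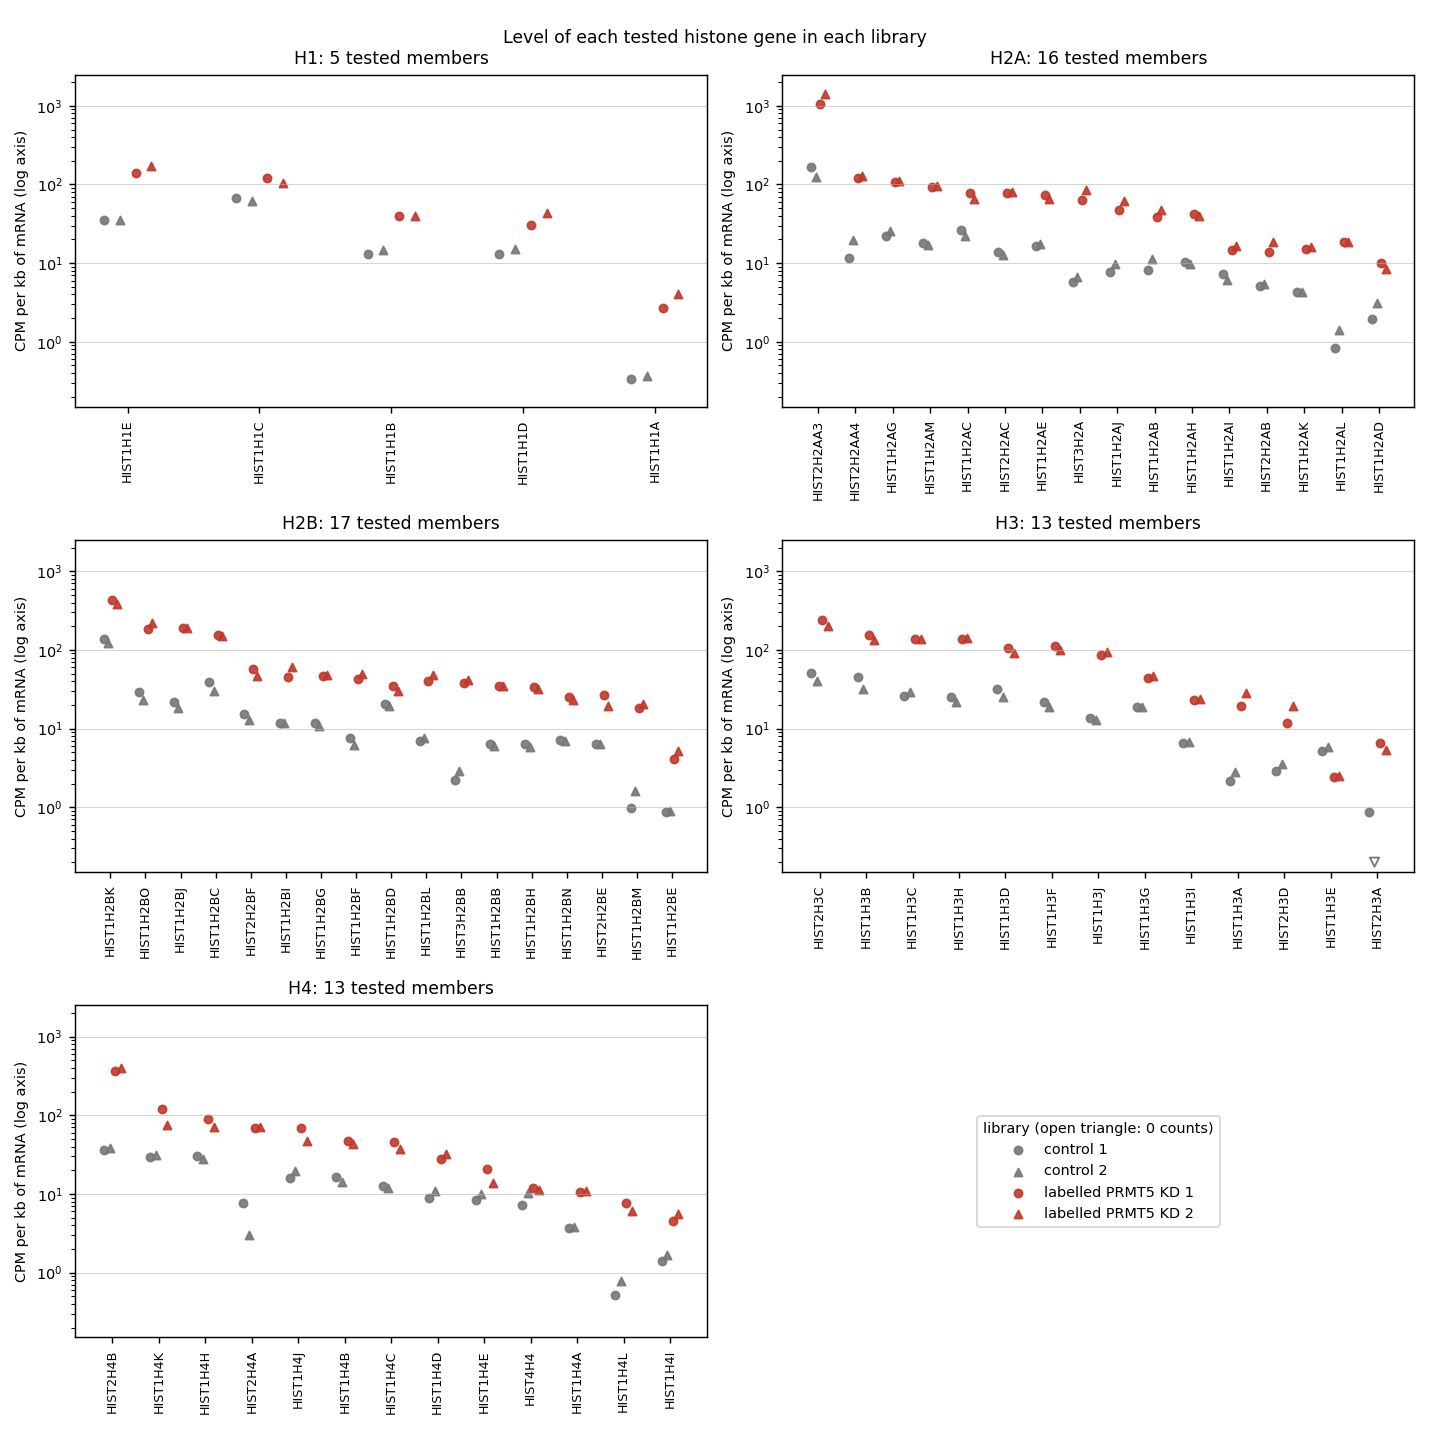
Level of each tested histone gene in each library (vertical log axis, CPM per kb of the shortest coding mRNA), with 1 panel per class, genes ordered by their mean, circles for replicate 1 and triangles for replicate 2, grey for control and red for the PRMT5 KD label. HIST2H2AA3 stands above the other H2A genes in every library, and HIST1H3E is the one gene with both red points below both grey points.

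Each class was then set against the others, a description for which no test was made. Levels per length were summed over each class, with the shortest coding mRNA of each gene as the length. On that scale H2A rose from 311 ± 20.7 to 2075 ± 273 CPM per kb, a ratio of 6.66. Without HIST2H2AA3 and HIST2H2AA4, a sum made after seeing the data, H2A rose from 150 ± 2.79 to 712 ± 22.5 CPM per kb, a ratio of 4.73. H1 rose from 128 ± 0.781 to 350 ± 23.2 CPM per kb, a ratio of 2.73. H2B, H3 and H4, with no gene left out, had ratios of 4.48, 4.49 and 4.74. In control HIST2H4A and HIST2H4B together held 42.3 of the 181 CPM per kb of H4. With the PRMT5 KD label they held 450 of 856 CPM per kb, so the H4 ratio rests largely on those genes. The share of H2A in the summed histone level was 26.7% and 26.5% in control and 33.6% and 38.5% with the PRMT5 KD label. With the pair HIST2H2AA3 and HIST2H2AA4 left out of H2A and of the total, it was 14.3% and 15.6% against 15.8% and 16.7%. That of H1 was 10.6% and 11.4% in control and 5.96% and 6.21% with that label, and 12.4% and 13.1% against 7.56% and 8.41% with the pair left out. H2B, H3 and H4 held between 13.97% and 27.5% in each library. The H2B share was also smaller with the PRMT5 KD label, at 27.5% and 26.4% against 25.3% and 23.8%. So was that of H3, at 20.6% and 19.4% against 19.2% and 17.5%. With the pair left out, neither was smaller in both libraries of that label. H2B then held 32.1% and 30.3% against 32.2% and 32.3%, and H3 24.1% and 22.2% against 24.3% and 23.7%. The H4 groups overlapped, at 14.6% and 16.3% in control and 15.9% and 13.97% with the PRMT5 KD label. Shares of H4 depend on the length used, since several H4 genes have long annotated transcripts. With union exon length H4 held 10.97% and 12.6% in control and 10.1% and 7.90% with the PRMT5 KD label, while H2A and H1 moved as before.

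**Figure D3:**
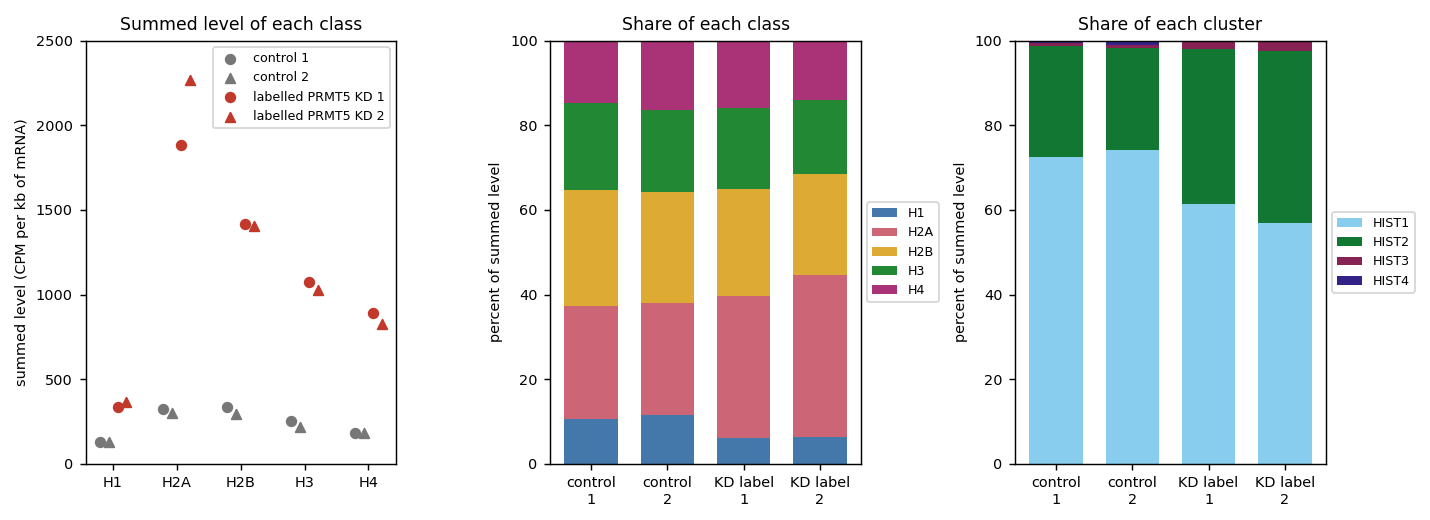
Summed level of each class in each library (left, CPM per kb of mRNA, from 0), and the percent of the summed level held by each class (middle) and each cluster (right) in each library. The H2A share, which includes HIST2H2AA3, is larger in both libraries labelled PRMT5 KD than in both control libraries. The H1, H2B and H3 shares are smaller there. In the same way the HIST2 share is larger and the HIST1 share smaller.

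The size of the change also varied by cluster, which was not tested either. HIST1 lies on chromosome 6 in 3 runs of genes, HIST2 and HIST3 on chromosome 1 and HIST4 on chromosome 12. All 11 tested HIST2 genes and both tested HIST3 genes were called higher, with medians of 2.58 and 3.75, against 49 of 50 for HIST1 with a median of 2.03. Among genes that passed the filter in control, the medians were 2.43 for 10 HIST2 genes and 1.90 for 47 HIST1 genes, and HIST3H2A was the one HIST3 gene left. Summed per length, HIST1 rose from 858 ± 38.8 to 3388 ± 56.7 CPM per kb (ratio 3.95) and HIST2 from 294 ± 35.2 to 2228 ± 249 CPM per kb (ratio 7.58, or 6.51 without HIST2H2AA3 and HIST2H2AA4). HIST3 rose from 8.79 ± 1.18 to 114 ± 17.9 CPM per kb (ratio 12.9). HIST2 held 26.1% and 24.0% of the summed histone level in control and 36.7% and 40.8% with the PRMT5 KD label. The HIST2 values varied within classes as well as between them. Among HIST2 H2A genes, HIST2H2AA3 and HIST2H2AA4 were at 3.09 and 2.98, HIST2H2AC at 2.58 and HIST2H2AB at 1.61. HIST2H2BE and HIST2H2BF were at 1.86 and 1.89, HIST2H3C and HIST2H3D at 2.28 and 2.26, and the HIST2H4A and HIST2H4B pair summed at 3.41. Of the windows of HIST2H2BF and HIST2H3D, 13.6% and 19.6% occur in no other gene, so their values depend on the division of shared reads. Within HIST1, the run at chr6:25723397-26285638 held 29 tested genes with a median of 1.90, the run at chr6:27125897-27147562 held 5 with 2.02, and the run at chr6:27807479-27893891 held 16 with 2.51. HIST1H3E and the 3 called genes under 1, HIST1H1C, HIST1H2BD and HIST1H4E, all lie in the first of these. The pseudogenes HIST2H2BC and HIST2H2BA, were outside the test. HIST2H2BC had 52.3 and 79 counts in control and 75.1 and 83.6 with the PRMT5 KD label, and HIST2H2BA at most 7. HIST1H2APS1 had none.

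**Figure D4:**
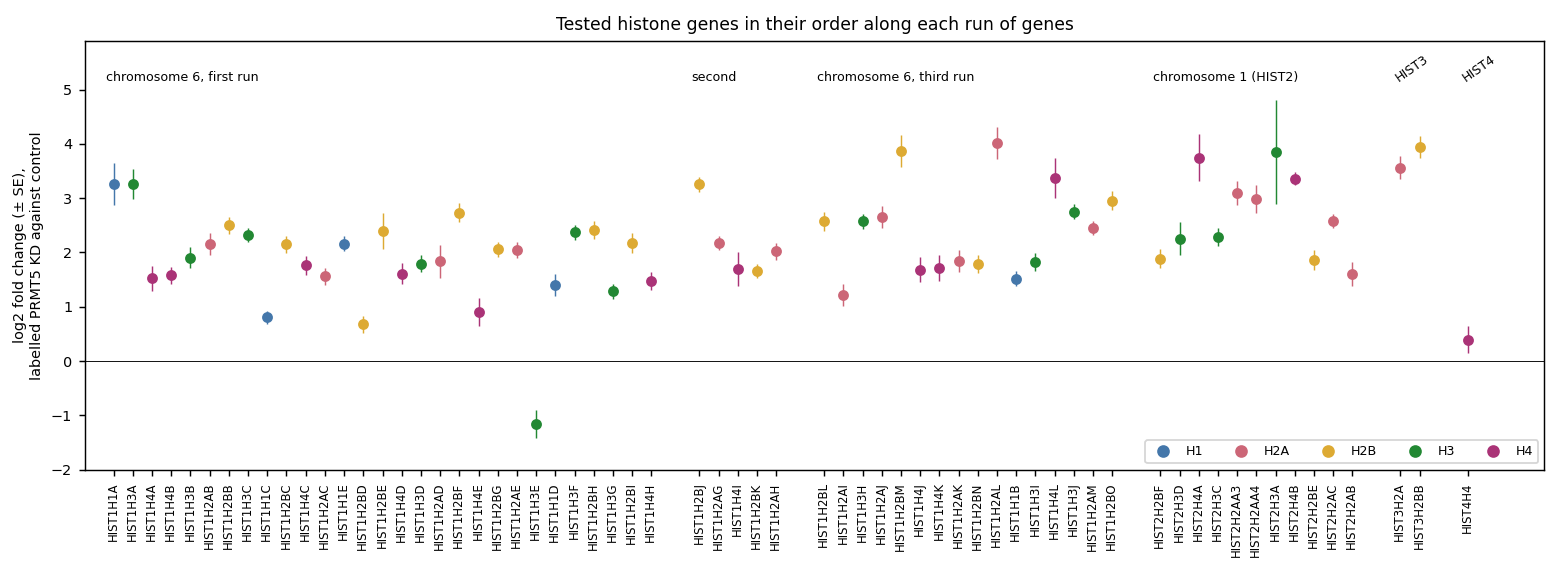
Log2 fold change with standard error (vertical axis, libraries labelled PRMT5 KD against control) of the 64 tested histone genes, in their order along each run of genes and coloured by class; horizontal spacing is by rank and not by distance. Neighbours differ in size of change, and HIST1H3E lies below 0 among neighbours that lie above it.

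Most H2A genes stand head to head with an H2B gene and share the DNA between their start sites. There were 12 such pairs, with start sites 194 to 251 bases apart, and 11 had both genes tested. In 8 of the 11 the H2B gene had the larger log2 fold change, with a median difference of 0.51 (H2B minus H2A). In 4 of the 11 the partners differed by less than 0.5 either way. Shared reads bear on HIST1H2AD and HIST1H2AM, of whose windows 15.4% and 30.9% occur in no other gene, and on HIST1H2BK (29.0%). In the pair with HIST1H2BK the H2A gene had the larger change. The widest gap was between HIST1H2AI (1.21) and HIST1H2BL (2.57), although HIST1H2AI summed with HIST1H2AJ was at 2.18. HIST1H2AG and HIST1H2BJ were at 2.18 and 3.26, and HIST1H2AJ, whose value has the same limit, and HIST1H2BM were at 2.65 and 3.87. HIST2H2AC (2.58) and HIST2H2BE (1.86) ran the other way. HIST1H2AE (2.04) and HIST1H2BG (2.06) were nearly equal. The pair HIST3H2A and HIST3H2BB had the largest changes together (3.56 and 3.94). Across the 11 pairs, which share libraries, Pearson's r between partners was 0.59 and Spearman's rho 0.48, given as a description.

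**Figure D5:**
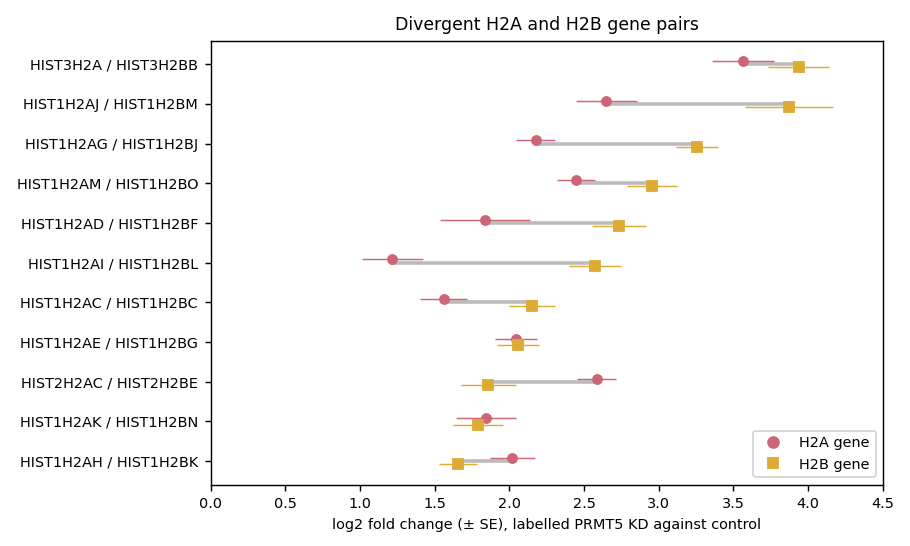
Log2 fold change with standard error (horizontal axis, libraries labelled PRMT5 KD against control) of the H2A gene (circle) and the H2B gene (square) of each of 11 divergent pairs, ordered by the H2B value. The squares lie to the right of the circles in 8 pairs.

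Promoter letters were then set beside the classes and the changes, as a description. In windows from 250 bases before to 50 after the start site (RefSeq, GRCh38.p14), available for 65 members, the start is that of the RefSeq gene. It lay 2007 bases from the start of the stem-loop mRNA for HIST1H3D and 957 bases for HIST1H3E, so those windows are not at the start of that mRNA. The octamer ATTTGCAT was found on either strand in 11 of 16 H2A and 14 of 18 H2B promoters. The one match among 12 H3 windows was that of HIST1H3D, which is the same window as that of HIST1H2AD, and the 10 H3 windows other than those of HIST1H3D and HIST1H3E held none. None was found in 6 H1 or 13 H4 windows, against 1.80% of 27305 promoters of all genes. CCAAT was present in every H1, H2A, H2B and H3 window and in 3 of 13 H4 windows, against 35.7% of all. TATAAA was present in 43 of the 65 windows, against 11.95% of all. Among H2A and H2B genes that passed the filter in control, the median log2 fold change was 2.17 for 22 with the octamer and 2.21 for 8 without it. Over all classes it was 2.16 for 45 genes with CCAAT and 1.61 for 9 without, and 2.16 for 35 with TATAAA and 1.84 for 19 without. All 10 windows without CCAAT were of H4 genes. The windows of HIST1H2BJ, which rose and stands in a divergent pair, of HIST2H4B, the H4 gene with the highest level, and of HIST4H4, the member not called, are shown for contrast. Capitals mark the 3 motifs on either strand, some of them overlapping.
HIST1H2BJ: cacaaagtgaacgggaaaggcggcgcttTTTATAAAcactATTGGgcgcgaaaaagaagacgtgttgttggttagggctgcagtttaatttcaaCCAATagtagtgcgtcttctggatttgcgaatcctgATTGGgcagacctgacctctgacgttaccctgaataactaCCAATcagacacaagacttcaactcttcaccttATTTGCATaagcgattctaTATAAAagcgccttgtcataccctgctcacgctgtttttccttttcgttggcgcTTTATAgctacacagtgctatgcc
HIST2H4B: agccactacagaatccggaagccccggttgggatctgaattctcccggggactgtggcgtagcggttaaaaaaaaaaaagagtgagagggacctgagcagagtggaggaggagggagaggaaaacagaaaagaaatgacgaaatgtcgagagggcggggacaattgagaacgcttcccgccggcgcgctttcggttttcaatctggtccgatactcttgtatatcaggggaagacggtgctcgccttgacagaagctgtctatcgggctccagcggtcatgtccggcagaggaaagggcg
HIST4H4: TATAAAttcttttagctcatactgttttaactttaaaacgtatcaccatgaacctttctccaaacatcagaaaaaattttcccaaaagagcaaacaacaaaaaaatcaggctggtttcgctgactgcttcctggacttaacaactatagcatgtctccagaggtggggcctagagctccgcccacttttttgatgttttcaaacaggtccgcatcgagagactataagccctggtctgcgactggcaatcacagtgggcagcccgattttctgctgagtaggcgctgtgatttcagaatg
They lie at chr6:27132746-27133045, chr1:149861110-149861409 and chr12:14771082-14771381, all on the minus strand, which is the strand printed. HIST2H4B and HIST4H4 held neither the octamer nor CCAAT. HIST4H4 held TATAAA at the far 5′ end of its window, and HIST2H4B held none. The log2 fold changes of HIST2H4B and HIST4H4 were 3.36 and 0.40, and the part of these motifs was not tested. A match of letters is a description and not a binding site.

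Transcripts of the machinery that makes histone mRNA rose in part. Of 30 genes for histone gene transcription and mRNA processing, 16 were called higher and none lower, with a median log2 fold change of 0.54. Over all genes tested 21.2% were called higher. CCNE2, a cyclin that drives CDK2 at the start of S phase, had the largest rise, from 5.02 and 7.17 CPM to 47.8 and 63.9 CPM (3.19, standard error 0.24, FDR = 0.000412). SLBP, the stem-loop binding protein, rose from 27.3 and 29.9 CPM to 73.0 and 70.5 CPM (1.33, FDR = 0.00046). NPAT, the coactivator of histone genes at histone locus bodies, was at 0.58 (FDR = 0.0109), and LSM10 and LSM11 of the U7 particle were at 0.50 and 0.84. SNRPB, a shared Sm protein, rose from 80.7 and 66.7 CPM to 196 and 207 CPM (1.45). The cleavage scaffold SYMPK (0.41, FDR = 0.0190) passed the FDR but not the fold threshold. UPF1, a helicase that takes part in histone mRNA decay, was not called (0.22, FDR = 0.196). ZCCHC11, now named TUT4, a terminal uridylyltransferase, had the lowest value (-0.41, FDR = 0.0153) and was not called.

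Genes of S phase were higher in the same libraries, where 21.2% of all genes tested were called higher. All 20 listed S phase genes were called higher (median 2.02), from POLA1 (0.94), the catalytic subunit of DNA polymerase alpha, to RRM2 (3.35), a subunit of ribonucleotide reductase. RRM2 had 37.6 and 31.5 CPM in control and 333 and 371 CPM with the PRMT5 KD label. PCNA, the sliding clamp, rose from 59.6 and 62.7 CPM to 239 and 257 CPM (2.02), and MCM2 of the replicative helicase from 61.6 and 60.8 CPM to 238 and 239 CPM (1.96). Of 8 histone chaperone genes, 7 were called higher (median 1.03). ASF1B rose most (2.83) and CHAF1A of chromatin assembly factor 1 was at 2.17. RBBP4 (0.53) and RBBP7 (0.61), which bind histones in several complexes, moved less. ASF1A passed the FDR but not the fold threshold (0.40, FDR = 0.0402). The part of these S phase transcripts in the histone values was not tested.

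Histone variants that are made outside S phase as well, from polyadenylated mRNAs, were mixed. Of 12, 11 were tested, 8 were called higher and 1 lower, with a median of 0.92, against 21.2% called higher over all genes tested. H2AFX rose most, from 21.5 and 21.0 CPM to 87.0 and 86.9 CPM (2.04, standard error 0.11, FDR = 0.000205); its mRNA is known to be made both with a stem-loop and with a poly(A) tail. H2AFZ (1.37) and H3F3B (1.46), which were the most abundant, and the linker histone gene H1F0 (0.92) were called higher. H3F3A, which encodes the same H3.3 protein as H3F3B, was at 0.04 (FDR = 0.791). H2AFJ was called lower, from 18.2 and 19.7 CPM to 8.74 and 6.19 CPM (-1.35, standard error 0.20, FDR = 0.00218).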

How the data were processed

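Protein-coding and other RNAs were measured by directional RNA-seq from total RNA on a Singular Genomics G4 instrument, 2 libraries per group. Whether poly(A) RNA was selected is not given in the sources used here. The authors deposited estimated counts per gene symbol, not normalized, 1 table per library. The submitters' processing notes name STAR, Salmon and GRCh38, whereas the study's methods name FeatureCounts on protein-coding genes, so how reads shared by near-identical histone genes were divided is not known.

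Same-name rows were summed and 28 entries with names turned into dates were left out (at most 0.161% of counts). The 73 members were matched by older symbol to GENCODE release 44. Estimated counts were rounded, and protein-coding names at 0.5 RPKM or more in both control or both labelled KD libraries were tested with edgeR 4.0.16 in R 4.3.3 (robust quasi-likelihood, TMM factors, no replicate term, Benjamini-Hochberg adjustment). With 2 libraries against 2, a permutation cannot reach a p of 0.05, so none was run. The biological coefficient of variation was 0.142. Levels per kb used the shortest coding mRNA. HIST2H2BE is annotated only with a 2224-base transcript, and reads from longer forms raise such levels for other genes. The procedure was tested on simulated data. The alternatives were DESeq2 1.42.0, other scalings and filters, a replicate term, an offset for length and GC, each library left out, a fold threshold of 1 and identical proteins summed.

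In each class the named genes are the 3 with the highest mean level per length and those with the largest and smallest change, then every tested member not called higher, PRMT5, and from each gene list the 3 most abundant genes and the largest and smallest change. Others were named after their values were seen. The members, gene lists and tests were chosen with earlier results of these data known.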

Additional observations from a re-analysis of the deposited data

How the results depend on the processing

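Of 64 members tested, 63 were called. The count was 58 to 62 with 1 library left out, and 31 features, all higher, when members with identical proteins were summed to 1 feature, which leaves fewer features by construction (10 for H2A, 2 for H3 and 1 for H4). H4 calls went from 12 to 7 with the length and GC correction and to 6 with the replicate block added, against 11 with the correction fitted without histone genes. The first pair of fits put HIST1H2BD at -0.0203 and -0.0212, and the cause was not tested. The list for histone transcription and processing gave 16 calls, 9 to 17 with 1 library left out (9 without control replicate 2), and 7 at a fold threshold of 1. PRMT5 was 0.66 (0.57 to 0.78 with 1 library left out). Its call was lost without control replicate 2 (0.58, FDR = 0.0667) and at a threshold of 1 (0.6574). With 1 control library, the lone library is assumed to vary like the other group.

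The paper and the labels do not say that replicate numbers pair the libraries. The deviations of same-numbered libraries had a correlation of -0.101 across genes, which with 2 libraries per group cannot decide whether they were paired. The replicate block gave 62 called members and 5186 called genes against 5420, and the crossed pairing, chosen after seeing the data, 63 and 5490. Total counts alone raised the median of all genes from -0.0075 to 0.17 and called 3510 genes higher and 2201 lower, against 2525 and 2895. A threshold of 1 gave 2565 called genes, and leaving out control replicate 2 gave 3098.

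The summed levels had these log2 ratios with total counts alone and with rRNA left out of the total. All members were at 2.47 and 2.51 (2.30 with TMM, 2.24 to 2.36 with 1 library left out). H1 was at 1.63 and 1.66, H2B at 2.34 and 2.37, H3 at 2.34 and 2.38, H4 at 2.42 and 2.45 and HIST1 at 2.16 and 2.19. H2A was at 2.95 with rRNA left out, H4 at 1.87 with union exon length, and without HIST2H2AA3 and HIST2H2AA4, left out after seeing the data, H2A was at 2.24 and all members at 2.12. No direction of a summed level changed under any scaling, length or left-out library tried. Outliers could not be looked for with 2 libraries per group.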
